A study of Drosophila melanogaster with 2 samples.

Results

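The genes described are 10 parts of epidermal growth factor receptor (EGFR) signalling in Drosophila melanogaster: the receptor gene Egfr, the ligand genes spi and vn, the protease genes rho and ru, the inhibitor genes aos, sty and kek1, and the ETS factor genes aop and pnt. They were chosen by name, 10 of 13945 protein-coding genes, and the locus of each runs from 5 kb before the gene to 5 kb past it. Araucan belongs to the Iroquois homeodomain proteins, a class of DNA-binding regulators. Its binding in these loci was measured by ChIP-seq, which sequences the DNA that comes down with a protein. The study holds 1 group, with 2 biological replicates of whole embryos 0 to 24 h after laying, from transgenic flies with an ara-eGFP insertion. The precipitation used an anti-GFP antibody, so what was recovered is the tagged protein, on chromatin sonicated to 200 to 800 bp. No second genotype, stage or treatment is available for comparison, and all results are descriptions with no test. Whole embryos mix many cell types, so that binding in few cells and weak binding in many cannot be told apart, and the peak lists hold no expression values against which to check the tissue.

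In flies as in mammals, the EGF receptor is a tyrosine kinase that signals through Ras and MAP kinase. Its main activating ligand in the fly, Spitz, is made as a membrane-bound precursor that rhomboid proteases cut, and the pathway switches on several of its own inhibitors. In the wing disc, araucan and caupolican are known to act upstream of rhomboid when longitudinal veins form.

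The sequences at the strongest Araucan summits of 8 members are shown first, because they are the DNA on which the highest values below were measured. A summit is the position of highest enrichment in a peak. Each window takes in 50 bp on either side of the summit of highest signal in that member's locus, on the plus strand of dm6, 5′ to 3′. Capitals mark the pentamer TAACA or its reverse complement TGTTA, a short sequence related to sites of Iroquois proteins.
spi, chr2L:19575747-19575847: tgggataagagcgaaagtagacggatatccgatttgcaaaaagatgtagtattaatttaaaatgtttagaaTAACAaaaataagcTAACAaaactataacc
vn, chr3L:5824197-5824297: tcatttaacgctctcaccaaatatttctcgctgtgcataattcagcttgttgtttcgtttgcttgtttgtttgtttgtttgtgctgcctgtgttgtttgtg
rho, chr3L:1463602-1463702: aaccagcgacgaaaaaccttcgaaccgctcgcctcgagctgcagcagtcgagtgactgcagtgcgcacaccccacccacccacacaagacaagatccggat
ru, chr3L:1368266-1368366: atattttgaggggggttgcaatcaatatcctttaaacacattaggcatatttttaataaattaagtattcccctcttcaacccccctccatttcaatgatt
aos, chr3L:16480514-16480614: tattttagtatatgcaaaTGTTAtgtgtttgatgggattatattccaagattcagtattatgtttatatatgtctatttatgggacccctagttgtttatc
sty, chr3L:3396224-3396324: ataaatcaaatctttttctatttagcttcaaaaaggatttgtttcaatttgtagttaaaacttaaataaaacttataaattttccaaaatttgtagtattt
aop, chr2L:2163632-2163732: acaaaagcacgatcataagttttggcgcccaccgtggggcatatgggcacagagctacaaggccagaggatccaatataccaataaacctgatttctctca
pnt, chr3R:23326469-23326569: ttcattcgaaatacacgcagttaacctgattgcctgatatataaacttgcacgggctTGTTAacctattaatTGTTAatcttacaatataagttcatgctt

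The pentamer was present in 3 of these 8 windows, those of spi, aos and pnt, and 5 windows held none of the motifs searched. Over all summits of the peak list described below, 24.5% of windows held the pentamer. The windows of spi and pnt held 2 copies each and that of aos held 1. The sty window was the poorest in G and C, at 17.8%, and the rho window was the richest, at 59.4%. The vn window holds a run of repeated tttg units right of its centre.

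All 10 loci held at least 1 summit of the conservative peak list, the list of 4706 peaks on the 6 assembled arms that the authors kept from both replicates. The same was true of 43.7% of all protein-coding genes and of 57.3% of the 3154 genes with loci in the members' length range (15.1 to 65.9 kb). Within that range lengths were not matched. The share with a summit was 52.4% for loci of 15 to 20 kb and 65.4% for loci of 50 to 70 kb. The 10 loci held 33 summits, none shared between members. Of the members, 7 held 3 or more summits (Egfr, vn, ru, aos, sty, aop and pnt), a count reached by 15.4% of genes with loci in that length range. The third vn summit is an entry of very low signal, described below, and without it 6 members held 3 or more. The count also depended on the weaker peaks, on replicate 2 and on the flanks. It was 3 (ru, aop and pnt, against 4.95% of those genes) among peaks at or above the median signal, 2 (sty and aop, against 5.1%) in replicate 1's own list, and 2 (Egfr and pnt, against 6.88%) within the genes without flanks. The genes were chosen with earlier results of these data known, so the shares are set side by side without a test.

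Longer loci tended to hold more summits, among the members as among all genes. The shortest loci, those of rho (15.1 kb) and kek1 (15.8 kb), held 1 summit each, and spi (19.4 kb) held 2. Genes with loci of 15 to 20 kb averaged 0.88 summits. In loci of 20 to 30 kb the average was 1.22, and aos and ru held 4 and 3. In loci of 30 to 50 kb the average was 1.58, and aop held 5, Egfr and sty 4 each and vn 3. The longest locus, that of pnt (65.9 kb), held 6, against an average of 2.03 in loci of 50 to 70 kb. Per 10 kb of locus, aos was densest at 1.72 summits, followed by aop at 1.55, and kek1 was sparsest at 0.63.

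**Figure D1:**
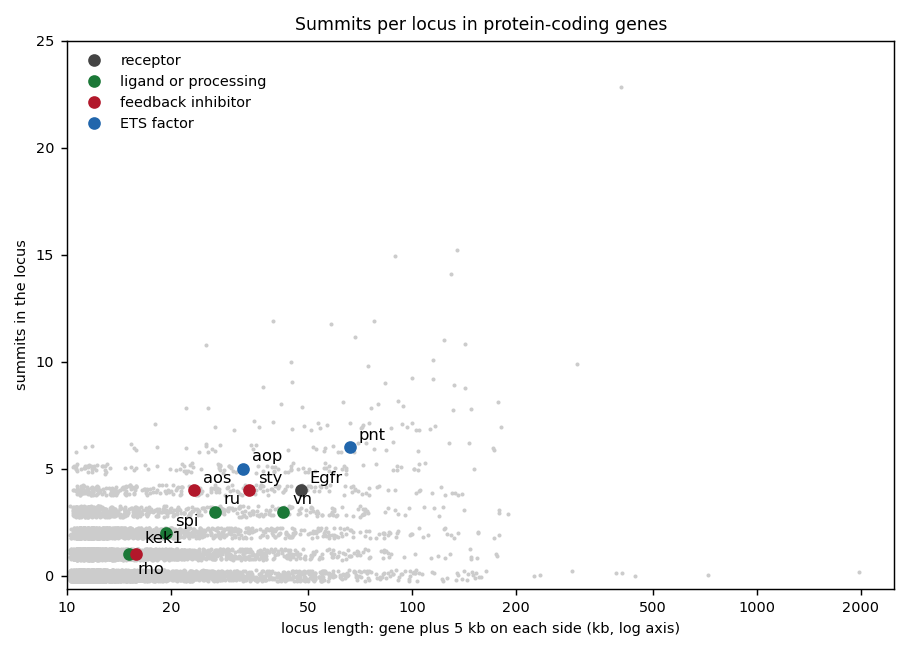
Number of conservative summits in each protein-coding locus (y axis) against locus length in kb on a log axis (x axis). Grey points are other genes, spread slightly up and down to show overlap, and coloured points are the 10 members by role, from rho and kek1 with 1 summit each to pnt with 6.

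Peak signal, the authors' own height for a peak in units that the sources used here do not define, separated the members more than the counts did. The highest summits were in the loci of aos (578.7), aop (496.4), sty (354.4) and ru (315.5). These 4 members held all 6 member summits in the top 10% of the list (signal of 266.4 or more), and 11.4% of genes with loci in the members' length range held such a summit. Only aos and aop did so without flanks (against 5.14% of those genes), and likewise in the top 10% of replicate 1's own list (against 6.28%). The strongest summits of vn, pnt and spi followed at 231.8, 221.9 and 197.2. Those of Egfr, kek1 and rho were 107.8, 82.1 and 69.4, near or below the median of the whole list, 96.2. Over the 33 summits the median signal was 107.8, and 17 of 33 lay above the list's median, close to an even split.

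**Figure D2:**
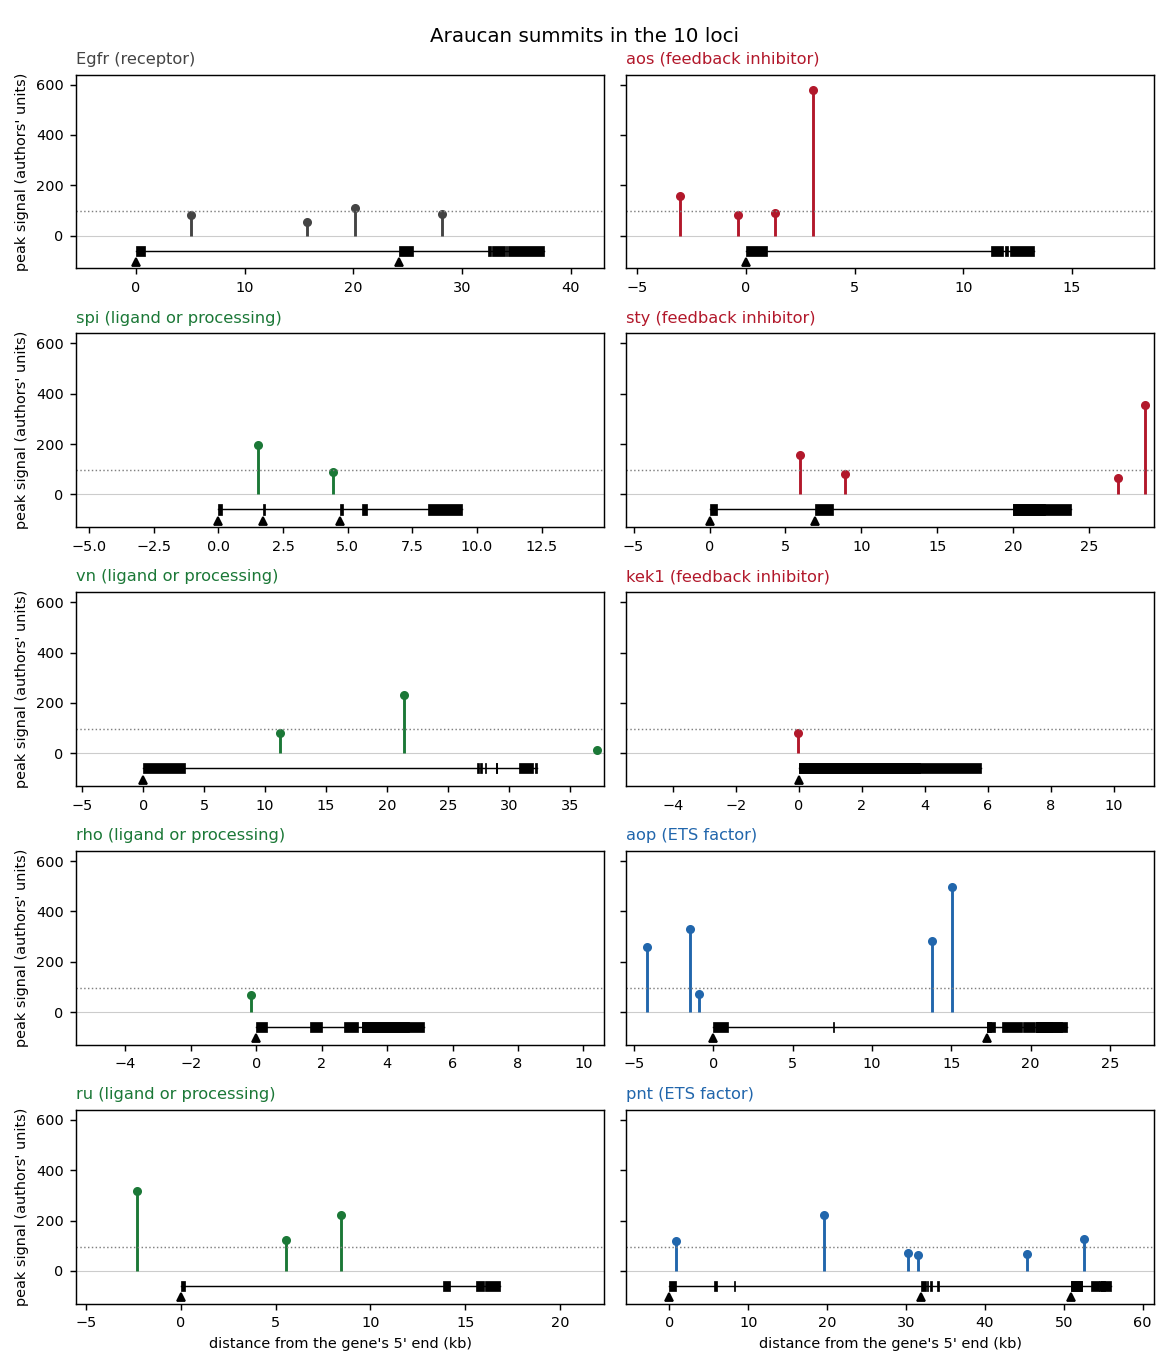
Conservative summits in the 10 loci, with distance from the gene's 5′ end in kb along transcription (x axis) and peak signal in the authors' units (y axis). Stems are summits, the dotted line is the median signal of the list, and boxes and triangles below are the gene's exons and transcription start sites. The tallest stems are an intronic summit of aos at 578.7 and one of aop at 496.4, while no stem of Egfr, rho or kek1 exceeds 107.8.

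The receptor gene Egfr (FBgn0003731, 2R 21522420 to 21559977, plus strand) held 4 summits of modest signal spread over its introns. Its strongest, at 21542599, had a signal of 107.8, with 38.3 in replicate 1 and 63.0 in replicate 2. The summit at 21550552 had 86.9 (26.8 and 57.3), and that at 21527517 had 80.4 (39.3 and 37.3). Replicate 2 was higher at the summits of 107.8 and 86.9, and the replicates were nearly level at 21527517. The weakest, at 21538119, had 54.3 (29.2 and 30.3) and was higher than 5.8% of conservative peaks. It lay 104 bp from the start site of CG30287, a gene annotated within Egfr, and the 107.8 summit was also nearest to a nested gene, CG30283, at 2026 bp. No Egfr summit was listed in both replicates' own thresholded lists, 2 were listed in replicate 2's list, and none lay within 500 bp of an Egfr start site.

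The ligand genes and the genes for ligand processing held 9 summits, with signals from 13.3 to 315.5 and a median of 122.1, and 4 of the 9 were listed in both replicates. The gene spi (FBgn0005672, 2L 19567900 to 19577315, minus strand) encodes Spitz, the TGF-alpha-like ligand. Both of its summits lay at internal promoters. The summit at 19575797, 210 bp upstream of the spi-RG start site, had a signal of 197.2, with 105.4 in replicate 1 and 104.1 in replicate 2. The summit at 19572892, 282 bp upstream of the spi-RE start site, had 89.5 (40.1 and 55.4). The replicates were nearly level at the first, which both lists held, and replicate 2 was higher at the other, which its list alone held.

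The gene vn (FBgn0003984, 3L 5813338 to 5845664, minus strand) encodes Vein, a neuregulin-like ligand that is secreted without cleavage by rhomboids. Its strong summit, at 5824247, had 231.8, with 99.4 and 130.5 in replicates 1 and 2, and both lists held it. It lay deep in an intron, 21417 bp past the vn start site and 11154 bp from the nearest coding start site, that of the checkpoint gene mad2. A weaker intronic summit at 5834422 had 80.4 (31.9 and 47.6), 11242 bp past the start site. In both, replicate 2 was the higher. The third entry, at 5808444, lay downstream of vn in an intron of S6k, with a signal of 13.3 that was below its own replicate values of 41.3 and 52.5. Those values belonged to replicate summits 175 and 167 bp away, close to another conservative summit of signal 97.3 at 5808239, just outside the locus. Of the 4706 conservative peaks, 184 had a signal below both replicate values, and this was the 1 in a member locus.

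The rhomboid protease genes rho and ru lie on 3L near each other, on the plus strand, and their summits fell within the annotated span of the phosphatase gene Ptp61F. The gene rho (FBgn0004635, 1463811 to 1468944), whose product cuts Spitz, had a single summit, 159 bp upstream of its start site at 1463652. Its signal of 69.4 was higher than 21.9% of conservative peaks, the replicate values were 35.9 and 31.0, and replicate 2's list alone held it. The gene ru (FBgn0003295, 1370628 to 1387437), which encodes the rhomboid Roughoid that acts in the eye, had 3 stronger summits. That at 1368316, 2312 bp upstream of the ru start site, had 315.5 (138.4 and 178.2). Those at 1379064 and 1376159, both in the ru intron, had 220.9 (94.8 and 127.0) and 122.1 (42.6 and 74.8). Replicate 2 was higher at all 3, and both lists held the stronger pair. The weakest ru summit was thus above the only rho summit.

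The feedback inhibitor genes also held 9 summits, from 66.5 to 578.7 with a median of 90.6, and 4 of them were in both lists. The gene aos (FBgn0004569, 3L 16470386 to 16483650, minus strand) encodes Argos, a secreted protein that binds Spitz and keeps it from the receptor. It held the strongest summit of the 33, at 16480564, 3086 bp into the gene in an intron. That summit had a signal of 578.7, higher than 97.8% of conservative peaks, with 240.3 in replicate 1 and 336.4 in replicate 2, and both values were the highest of any member summit in their replicate. The other aos summits stepped upstream at spacings of 1761, 1678 and 2649 bp. They lay in the intron at 16482325 with 90.6 (43.4 and 46.3), in the promoter at 16484003 with 82.8 (34.8 and 31.6), and 3002 bp upstream at 16486652 with 157.8 (36.4 and 119.9). The last showed the widest gap between replicates of the 33, a ratio of 3.29, and replicate 2's list alone held it. All 4 lay within the annotated span of CG33158, so the locus is not that of aos alone.

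The gene sty (FBgn0014388, 3L 3401153 to 3424935, minus strand) encodes Sprouty, an intracellular inhibitor of receptor tyrosine kinase signalling. Its 4 summits formed a pair inside the gene and a pair past its 3′ end, 18009 bp apart. Inside, the summit at 3418950, 989 bp upstream of the sty-RB start site, had 155.9 (70.4 and 73.7), and that at 3416039 had 82.3 (42.5 and 39.5). The replicates were nearly level at both, and the 82.3 summit was the 1 of the 33 that replicate 1's list alone held. Past the 3′ end, the summit at 3396274 had 354.4 (123.2 and 233.7), was listed in both and was the strongest of the locus. Its neighbour at 3398030 had 66.5 (34.4 and 30.5) and was in neither list. The 354.4 summit was intergenic, 21687 bp from the nearest sty start site and 18006 bp from the nearest coding start site, that of Ids, so that its assignment to sty rests on the 5 kb flank. Within the gene alone the highest sty signal was 155.9.

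The gene kek1 (FBgn0015399, 2L 12817000 to 12822787, minus strand) encodes a transmembrane protein with leucine-rich repeats that binds and inhibits the receptor. It held 1 summit, at 12822824, 37 bp upstream of its start site and the closest of the 33 to one. The signal was 82.1, with 35.5 in replicate 1 and 41.0 in replicate 2, and neither replicate's own list held it.

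The ETS factor genes held 11 summits, from 61.3 to 496.4 with a median of 125.2, and 6 were in both lists. The gene aop (FBgn0000097, 2L 2156484 to 2178754, minus strand) encodes Yan, an ETS repressor that MAP kinase inactivates. It held 4 strong summits, a pair within an intron and a pair upstream of the gene. The intronic pair, 1295 bp apart, had 496.4 at 2163682 (188.0 and 294.4) and 281.2 at 2164977 (112.2 and 174.4), upstream of the internal aop-RA start site by 2155 and 3450 bp. The upstream pair had 331.6 at 2180232 (127.9 and 206.1) and 259.1 at 2182933 (102.2 and 165.2), the second in an exon of the noncoding gene lncRNA:CR43751. Both lists held all 4, and replicate 2 was higher at each by a ratio between 1.55 and 1.62. Another summit, at 2179658, 574 bp from the 331.6 summit, had 71.2 (31.8 and 35.0) and was in neither list.

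The gene pnt (FBgn0003118, 3R 23290231 to 23346167, minus strand) encodes Pointed, the ETS activator of the pathway, from several promoters. All 6 of its summits lay inside the gene. The strongest, at 23326519 in an intron 12204 bp upstream of the pnt-RD start site, had 221.9 (90.5 and 133.2). Next came 125.2 at 23293637 (43.9 and 78.2), 1601 bp past the pnt-RC start site, and 118.1 at 23345277 (54.5 and 62.8), 890 bp past the pnt-RB start site. Replicate 2 was higher at these 3, and both lists held the first and the last of them. The remaining summits, at 23315872, 23300779 and 23314594, had 69.4 (37.7 and 37.0), 65.5 (31.4 and 37.7) and 61.3 (41.6 and 26.2) and were in neither list. The last of these, 279 bp upstream of the pnt-RD start site, had the lowest ratio of replicate 2 to replicate 1 among the 33, at 0.63.

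**Figure D3:**
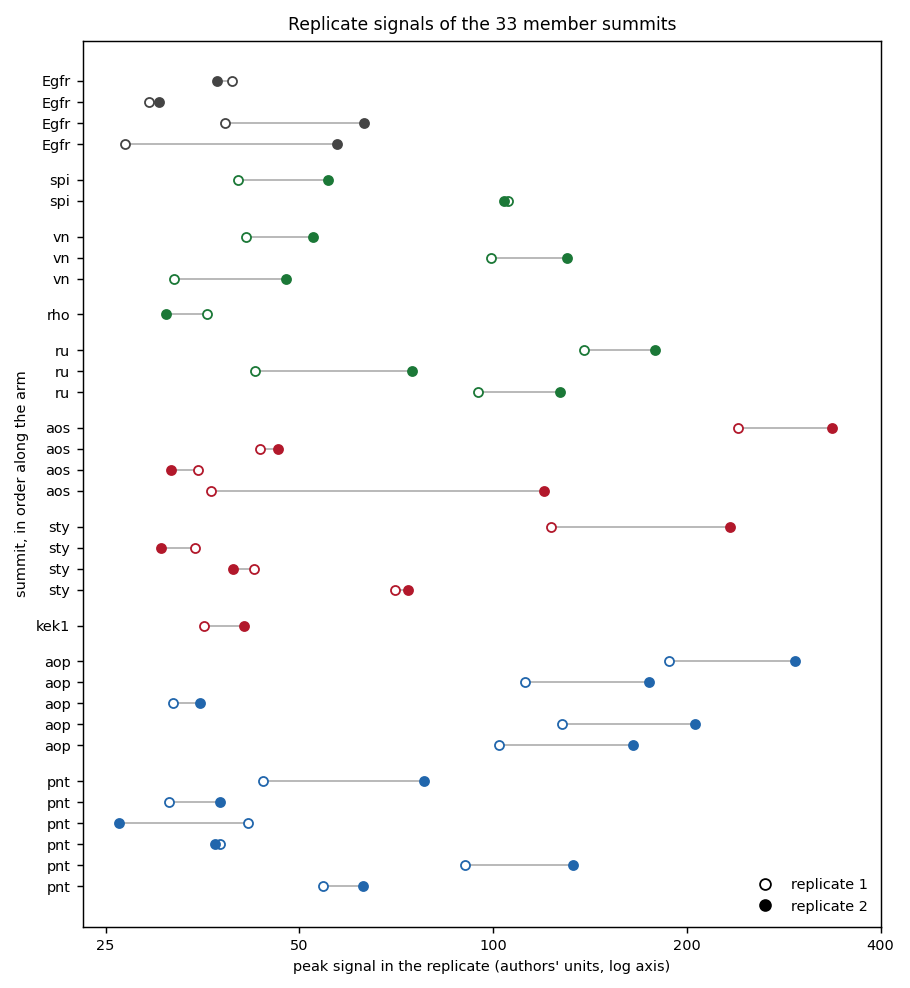
Peak signal of each of the 33 summits in replicate 1 (open circles) and replicate 2 (filled circles), in the authors' units on a log axis (x axis), grouped by gene (y axis). Replicate 2 is to the right for 25 of 33 summits, and the widest gap is at an aos summit, with 36.4 against 119.9.

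Across the members the replicates differed much as they did over the whole list. Replicate 2's value was the higher at 25 of 33 summits (75.8%), and at 77.7% of all conservative peaks. The median ratio of replicate 2 to replicate 1 was 1.29, with a range of 0.63 to 3.29, against a median of 1.31 over all peaks. Both own lists held 14 of the 33 (42.4%, against 44.9% of all peaks), replicate 2's alone held 10, replicate 1's alone 1, and neither held 8. Replicate 1's list held 2396 peaks on the arms and replicate 2's held 4132. In 7 loci at least 1 summit was in both lists, and in those of Egfr, rho and kek1 none was. The share of all protein-coding loci with such a summit is not given here, and the 44.9% is a share of peaks, not of loci.

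The member summits lay in introns more than at promoters. A promoter was within 500 bp of any annotated transcription start site. By this rule 7 of 33 were in promoters (21.2%, 95% exact binomial interval 8.98 to 38.9), against 39.9% of all conservative peaks, and 21 were in introns (63.6%, 45.1 to 79.6), against 37.7%. Without replicate 2, in replicate 1's own list, 2 of 16 member summits were in promoters (12.5%), against 43.8% of that list. The intervals cover counting error only, and summits of 1 locus share their gene. The comparison is with the whole list, not with peaks in loci of like length, so it does not allow for the length of the members' genes. The intron label also covers introns of other genes, as at summits within S6k, Ptp61F and CG33158 alone. Of the summits in neither promoters nor introns, 4 were intergenic and 1 was in a noncoding exon, and none was in a coding exon. By position, 22 lay inside the member's own gene, 8 upstream and 3 downstream. The median distance to the member's nearest start site was 3002 bp, and 24 of 33 lay over 1 kb from every start site of the member. A summit within 500 bp of an own start site was found for 5 members, spi, rho, aos, kek1 and pnt, and for 15.1% of all protein-coding genes. That share is not limited to the members' length range, nor matched for start sites, of which spi and pnt have 3 each. Such a summit was found for spi alone in replicate 1's own list (against 9.01%). The same held among peaks at or above the median signal (against 9.14%). The nearest coding start site was the member's own for 27 of 33 summits, and otherwise that of CG30287, CG30283, S6k, mad2 or, for a pair, Ids.

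The DNA under the summits was poor in G and C. The median GC share of the 33 windows was 32.7%, with a range of 17.8 to 59.4%, against a median of 46.0% in windows of the same size centred 500 bp away on both sides. Over all conservative peaks the medians were 34.7% and 42.6%. The summit window was below its flanks at 25 of 33 member summits (75.8%) and at 65.9% of all peaks. Of the 33 windows, 26 were under 40% GC. The promoter windows of rho and kek1 were among the exceptions, at 59.4% and 55.4%, above their flanks of 38.6% and 34.2%. Of the other promoter windows, that of pnt was also above its flanks, and those of Egfr, spi and aos were below. Windows away from promoters were among the exceptions too, as at the intronic 82.3 summit of sty (50.5% against 36.1%). The 496.4 summit of aop was the only 1 of the 6 in the top 10% by signal with a GC share of 40% or more, at 47.5%.

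**Figure D4:**
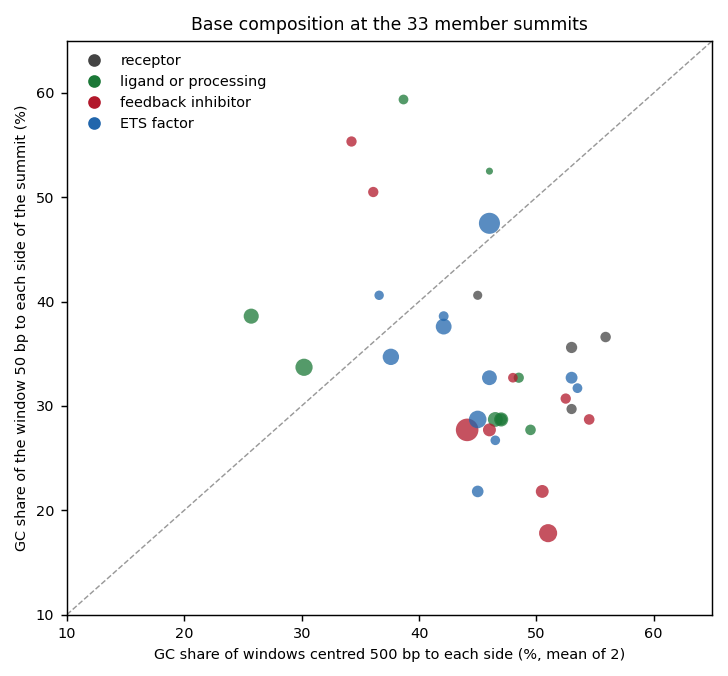
GC share of the window of 50 bp to each side at each of the 33 summits (y axis, %) against the mean GC share of windows centred 500 bp away on both sides (x axis, %), coloured by role, with larger circles for higher signal. The dashed line marks equal shares, and 25 of 33 summits lie below it.

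In the same windows 5 short motifs were searched on both strands, and a match is a description of the letters, not a site. The ETS core CCGGAA, a sequence that Pointed and Yan bind, was in 0 of 33 member windows, where a count of 0 of 33 has an exact upper limit of 10.6%, and in 2.49% of all summit windows. The Iroquois palindrome ACANNTGT was in 0 of 33 and in 4.8% of all windows. The pentamer TAACA was in 8 of 33 (24.2%), against 24.5% of all windows, and it shares the letters ACA with the palindrome, so that matches of the pair can overlap. The homeodomain core TAATTA was in 1 window, that of the 89.5 summit of spi, and in 8.73% of all windows. The Capicua octamer TGAATGAA, the site of an HMG-box repressor that the pathway inactivates, was in 0 of 33 and in 0.914% of all windows. In windows of 100 bp to each side, the ETS core was again in 0 of 33, against 4.5% of all windows, and the palindrome was in 2, those of the 578.7 summit of aos and the 65.5 summit of pnt, against 9.65% of all windows.

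The other genes of the pathway were looked at in the same way, with 22 named genes, of which 14 had a summit and 9 had 3 or more. Beside these counts, 43.7% of all protein-coding genes had a summit, and so did 57.3% of those in the members' length range. Of the latter, 15.4% had 3 or more. The loci of the 22 genes ran from 11.7 to 64.5 kb, so they were not all in that range. The strongest summits of the 22 genes were nearest to start sites of the genes themselves. RasGAP1 (also called Gap1), which switches Ras off, had 793.0 at 713 bp, Shc, an adaptor of the receptor, had 680.4 at 125 bp, and edl, an antagonist of ETS factors, had 616.6 at 1808 bp. Raf, the kinase below Ras, had 593.3 and the most summits, 12. These 4 values exceeded that of every member, aos included.

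Among the genes that serve ligands, S, which carries Spitz out of the endoplasmic reticulum, had 5 summits of up to 443.4, the rhomboid gene stet had 1 of 274.0, and Krn, another Spitz-like ligand, had 5 of up to 237.2. That Krn summit lay 3927 bp from the start site of another coding gene, CG7484, and 4264 bp from its own. The Capicua gene cic had 6 of up to 226.1, and Mkp3, a MAP kinase phosphatase, had 5 of up to 125.4. The lowest of the Mkp3 summits was an entry of very low signal, 2.1. Dsor1, the MAP kinase kinase, had 1 of 92.7. The highest summits of drk (389.3), cnk (284.2), dos (106.7) and ksr (94.6) were likewise nearest to start sites of other coding genes, mars, l(2)k01209, RpL8 and CG31550. No summit was listed in the loci of grk, rho-4, Sos, Ras85D, rl, csw, Cbl and PTP-ER, which include the genes for Ras, Sos and the MAP kinase. The highest peak there in the unthresholded ranked list had a signal of 109.0, in the locus of Ras85D. That was above the conservative list's median of 96.2, so a locus without a listed summit is not one without signal.

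Of 6 other ETS factor genes, 5 had a summit, beside 43.7% of all protein-coding genes and 57.3% of those in the members' length range. Ets65A had 2, the higher at 388.1, and Eip74EF had 3, the highest at 121.8. Ets96B (135.4), Ets97D (104.0) and Ets21C (64.7) had 1 each, and Ets98B had none. The highest summits of Ets65A, Ets96B and Ets97D lay within 500 bp of start sites of other genes, CG10467, CG5805 and CG46339, and that of Ets21C was 473 bp from its own.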

How the data were processed

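Per the labels, Araucan ChIP-seq was made in 2 biological replicates of 1 group, on dm6. The authors deposited peak lists with a signal for each peak. Its normalization, the aligner, the peak caller and the depth were not given in the sources used here. Control libraries were not used here. The deposited ranked list of both replicates also holds a −log10 value per peak, read as that for the global irreproducible discovery rate, 2.0 or more for every conservative peak. It carries a pair of unnamed sets of replicate values. The first equalled replicate 1's own ranked list for 4684 of 4706 conservative peaks and the second equalled replicate 2's for 4693, and both did so for all 33 summits described.

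The conservative list was used on 6 arms. Summits were placed 1-based on the gene models of Ensembl release 115 (BDGP6.54, whose sequence is that of dm6), leaving out transposable elements, and sequence came from the RefSeq copy of that assembly. A replicate's list held a peak when they overlapped by at least 1 bp. Intervals are exact (Clopper-Pearson, 95%). The tools were scipy 1.17.1, pandas 2.3.3 and numpy 2.4.6 under Python 3.11.15, with plots from matplotlib 3.10.9. On simulated data the promoter labels and the motif search found every planted case. That check did not cover the counting of summits per locus, and it could not show false matches. No test was made, since there is 1 group. The members, gene lists and motifs were chosen with earlier results of these data known. Genes named are the members with every summit, the gene of the nearest coding start site where it is another, and the other pathway and ETS genes. Gap1 was matched to RasGAP1 through an older name. As alternatives, results were recomputed with the other thresholded list, the stronger peaks, each replicate's own list, other flanks, nearest start site, peak overlap, promoter widths and wider motif windows.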

Additional observations from a re-analysis of the deposited data

How the results depend on the processing

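No paired analysis was possible because the study holds a single group. All 10 members kept a summit in the other thresholded list, with 10 kb flanks, by nearest coding start site and by overlap of the peak interval. Without flanks 8 members held one, and with peaks at or above the median signal also 8. In single replicates' lists 7 to 9 members did. The share of all genes with a summit under these settings is not given here, so these counts do not set the members apart from other genes. The 33 summits became 17 at or above the median signal and 16 to 29 in the lists of single replicates, 16 of them in the list of replicate 1, the shorter of the pair. The other list gave 40 summits, no flanks 22 and 10 kb flanks 46. Leaving out the low vn entry, an alternative chosen after seeing the data, gave 32. The promoter share of 21.2% was 12.1% for promoters of 250 bp and 36.4% for 1000 bp. The share of all peaks at these widths is not given here, and the 39.9% above holds for 500 bp alone. In single replicates' lists the members' share was 12.5% (replicate 1, against 43.8% of that list) and 20.7% (replicate 2, against 40.6%). As further alternatives chosen after seeing the data, 3 of the members' counts were recomputed. The 7 members with 3 or more summits became 3 at or above the median signal, 2 without flanks, 6 without the low entries and 2 to 5 in the lists of single replicates. The 4 members with a summit in the top 10% became 2 without flanks and 2 to 4 in those lists. The 5 members with a summit at an own start site became 1 at or above the median signal and 1 to 4 in those lists. In each case the lower count was that of replicate 1's list. The palindrome went from 0 windows to 2 in windows of 100 bp to each side, where more letters are searched. Of 18 highest-signal values recomputed, 17 were within 1.5 times of the main one, and sty fell to 155.9 without flanks. The lists give no read counts, and the depth is unknown.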

Other observations

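A pair of gene families of the members were looked at after the members' values were seen. For comparison, 43.7% of all protein-coding genes and 57.3% of those in the members' length range had a summit. Of the 7 genes of the rhomboid family, 5 had a summit in their loci: ru (315.5), stet (274.0), rho-7 (204.6), rho-5 (97.8) and rho (69.4). The highest summits of rho-7 and rho-5 lay 144 and 168 bp from start sites of other coding genes, RnrS and CG33303. In the loci of rho-4 and rho-6 no conservative summit was listed, and the highest peak of the ranked list there had a signal of 41.8. Of the 6 kekkon genes, which encode transmembrane proteins with leucine-rich repeats and immunoglobulin domains, 3 had a single summit each: kek4 (87.3), kek1 (82.1) and kek5 (69.7). All 3 were below the list's median signal of 96.2, and none was in both replicates' own lists. The loci of kek2, kek3 and kek6, at 41.3 kb or more, held none, and their highest ranked peak had a signal of 55.3.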
